A study of Mus musculus with 9 samples.

Results

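Spleen B cells of Eµ-PRMT5/TCL1 mice were compared with those of Eµ-TCL1 mice at 3 months of age, the younger of the ages sequenced. Members were chosen by the sample description: 3 Eµ-PRMT5/TCL1 mice (replicates 1 to 3) and 2 Eµ-TCL1 mice (replicates 1 and 2), 5 of the 9 libraries of the series, with the other 4 libraries taken at 6 months. The labels give strain C57BL/6N for all mice, and the methods of the study name Eµ-TCL1 mice on a C57BL/6 J background for the cross. All 5 mice carried the human TCL1 transgene under the immunoglobulin heavy chain Eµ enhancer, so the Eµ-TCL1 mice were transgenic controls and not wild-type animals. Eµ-PRMT5/TCL1 mice also carried human PRMT5, driven in immature and mature B cells by a VH promoter and the Eµ enhancer and bred from a single founder line. B cells were enriched from spleen by removal of other cells, and stranded mRNA libraries were sequenced. The comparison asks how alike the genotypes were before overt disease, and within what bounds.

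PRMT5 is an arginine methyltransferase that works with its partner Wdr77 and places symmetric dimethyl marks on histones and on Sm proteins, the core of the spliceosome. TCL1 binds and co-activates AKT kinases, and mice that express it in B cells develop a disease like chronic lymphocytic leukaemia (CLL), a slow expansion of CD5+ B cells. PRMT5 is known in lymphoma for repressing tumour suppressor genes and for its links to MYC, cyclin D and AKT signalling.

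Total counts were 12233230 to 13659472 per library. Fragments of the human transgenes were not analysed here, so the genotype could not be checked by them. Mouse Prmt5 was at 33.8, 36.4 and 35.7 CPM (counts relative to the library total, after TMM scaling) in Eµ-PRMT5/TCL1 and at 34.1 and 35.004 CPM in Eµ-TCL1, and the groups overlapped. Mouse Tcl1 had no count in any of the 5 libraries, and a count of 0 allows up to 3 counts, or 0.220 to 0.245 CPM by library. B-cell markers were abundant, with Ms4a1, which encodes CD20, at 1027 to 1252 CPM. Markers of other cells were present as well, with the T-cell gene Cd3g at 65.9 to 101 CPM and the neutrophil gene S100a9 at 483 to 2552 CPM. In bulk RNA, fewer cells of a type and less RNA per cell cannot be told apart. Eµ-PRMT5/TCL1 replicate 1 held 7863 counts over 4 Y-linked genes and 11 counts of Xist, whereas the other 4 libraries held 1 to 3 Y-linked counts and at least 23648 counts of Xist. The labels give no sex, so this library also differed from the others in these genes. Values without it are given beside some results, but not for the pairs of libraries, the principal component or most single genes.

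Libraries of different genotype were no farther apart than libraries of the same genotype. Over 9765 genes at 10 CPM or more, the median absolute log2 difference was 0.112, 0.129 and 0.147 in the 3 pairs of Eµ-PRMT5/TCL1 libraries and 0.135 in the pair of Eµ-TCL1 libraries. It was 0.107 to 0.145 in the 6 pairs that crossed genotypes, so the ranges lay on top of each other. The closest pair of all 10 was Eµ-PRMT5/TCL1 replicate 3 with Eµ-TCL1 replicate 1, and 61 genes differed by more than 2-fold in it. The pair farthest apart in that count was Eµ-PRMT5/TCL1 replicate 1 with Eµ-TCL1 replicate 2, with 206 genes. These pairs share libraries and were described without a test.

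**Figure D1:**
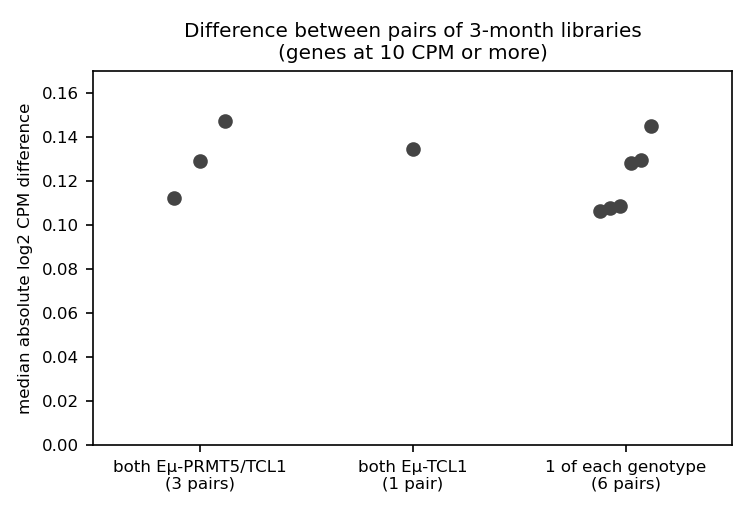
Each point is a pair of 3-month libraries, and the vertical axis is the median absolute log2 CPM difference over genes at 10 CPM or more. Pairs that cross genotypes (0.107 to 0.145) cover the same range as pairs within Eµ-PRMT5/TCL1 (0.112 to 0.147) and the Eµ-TCL1 pair (0.135).

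The first principal component, over the 500 most variable genes, held 42.9% of the variance and did not order the libraries by genotype. Its scores were 23.3, -6.27 and -3.41 in Eµ-PRMT5/TCL1 and 3.67 and -17.3 in Eµ-TCL1. The extremes were thus 1 library of each genotype, Eµ-PRMT5/TCL1 replicate 1 and Eµ-TCL1 replicate 2. Of those 500 genes, 79 were immunoglobulin or T-cell receptor segments and 19 lay on chromosome X or Y.

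No gene of 18017 tested passed an adjusted p of 0.05 in edgeR's quasi-likelihood test on the 5 libraries, and the smallest adjusted p was 0.0901. At an unadjusted p under 0.05 there were 511 genes (2.84%), of which 242 (1.34%) were higher and 269 (1.49%) lower in Eµ-PRMT5/TCL1. DESeq2 on the same libraries called 8 genes, all lower in Eµ-PRMT5/TCL1. The study, whose methods name DESeq2, reported no differentially expressed genes between these groups at 3 months. Which libraries entered its fit is not stated. Limma voom called 0, with 523 at an unadjusted p under 0.05, and edgeR with no filter on low counts called 107. Without Eµ-PRMT5/TCL1 replicate 1, 0 genes were called and 549 had an unadjusted p under 0.05. Without Eµ-PRMT5/TCL1 replicate 2, 774 genes had an unadjusted p under 0.05. Without Eµ-PRMT5/TCL1 replicate 3 there was 1 call, Gm21887 on chromosome X (log2 fold change 5.63). The library that held Y-linked RNA was still in that fit. Leaving out Eµ-TCL1 replicate 1 or 2 leaves a single control library, so only effect sizes are given for those fits. Without Eµ-TCL1 replicate 2, Ighv1-74, the leading heavy chain segment of the remaining control library, differed by -5.19 on the log2 scale.

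The differences were small and the bounds were narrow for well expressed genes. The median absolute log2 fold change was 0.11, or 1.08-fold, and 90% of genes lay under 0.48, or 1.39-fold. The 95% interval of the fold change lay wholly inside 2-fold in either direction for 13529 genes (75.1%) and inside 1.5-fold for 9287 genes (51.5%). An absolute log2 fold change over 1 was fitted for 249 genes (1.38%), 104 higher (0.577%) and 145 lower (0.805%), and 214 of the 249 had a mean under 10 CPM. Without Eµ-TCL1 replicate 1 or 2, which leaves a single control library, 873 and 771 genes passed this limit. The precision followed the level: the median half-width of the interval was 1.14 on the log2 scale for 1417 genes under 1 CPM, 0.67 for 6835 genes at 1 to 10 CPM, 0.29 for 7530 genes at 10 to 100 CPM and 0.20 for 2235 genes over 100 CPM. As a share of genes, the interval lay inside 2-fold for 1.20%, 60.9%, 95.2% and 97.7% of these classes. A 2-fold difference was therefore not detectable as such for most genes under 1 CPM, while for most genes over 10 CPM the interval left it out.

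**Figure D2:**
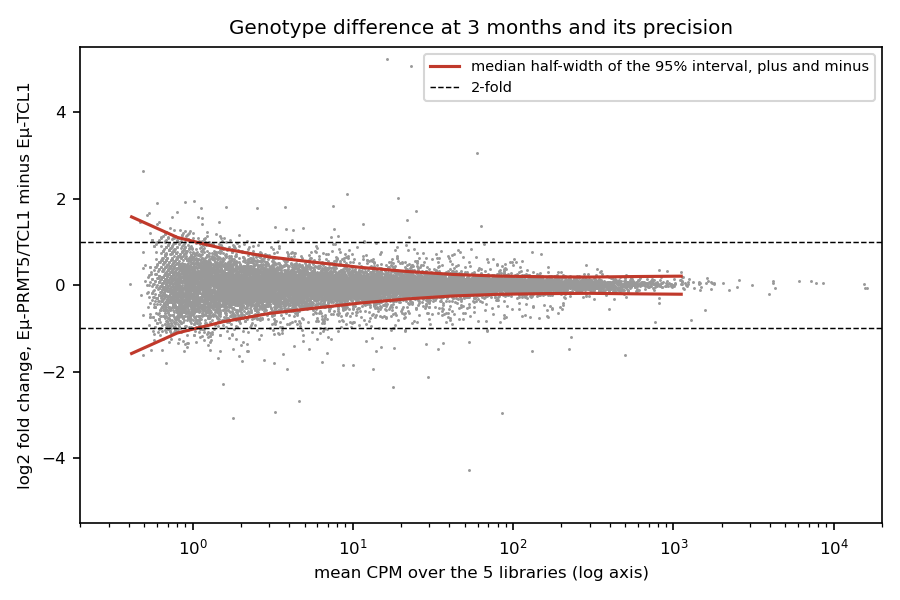
Each grey point is 1 of 18017 tested genes, with its mean CPM on a log axis and its log2 fold change between genotypes, and the red lines are plus and minus the median half-width of the 95% interval at that level. The half-width narrows from 1.14 under 1 CPM to 0.20 over 100 CPM, where most genes lie well inside the dashed 2-fold lines.

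Among protein-coding autosomal genes whose libraries did not overlap, the 12 with the smallest p in each direction were taken by rule, so the values below describe the edge of the distribution. None passed the adjusted threshold in edgeR's test with low counts filtered, whereas without that filter 21 of the 24 did, 12 lower and 9 higher. Over all genes tested in that setting, 107 of 30916 passed. The 24 were chosen for small p on the same counts, so their calls in other settings are no separate support. The groups did not overlap for 2891 of all tested genes (16.0%), 1451 higher (8.05%) and 1440 lower (7.99%).

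The lower genes were led by Ptgs2, Ctla4, Ide and Sik1. Ptgs2, which encodes cyclooxygenase-2 of prostaglandin synthesis (GRCm38 chr1:150100031-150108227), was at 8.23, 8.33 and 7.39 CPM in Eµ-PRMT5/TCL1 and at 26.3 and 19.3 CPM in Eµ-TCL1. It was 2.86-fold higher in Eµ-TCL1 (log2 fold change -1.51, SE 0.17, 95% interval -1.90 to -1.12, edgeR adjusted p = 0.0901). Without Eµ-TCL1 replicate 2, which leaves a single control library, it differed by -1.72 on the log2 scale. Ctla4, an inhibitory receptor of T cells that is also found on CLL cells (chr1:60887000-60915832), was at 22.3, 23.6 and 21.4 CPM against 41.7 and 41.7 CPM. Its log2 fold change was -0.90 (interval -1.14 to -0.66), with the replicates of each group within 3 CPM of each other. Ide, the insulin-degrading protease (chr19:37268743-37337852), was at 68.0, 74.3 and 69.7 CPM against 109 and 118 CPM, a log2 fold change of -0.69. Sik1, a salt-inducible kinase that restrains CREB-dependent transcription (chr17:31844250-31855804), was at 27.0, 34.96 and 30.3 CPM against 58.2 and 57.2 CPM, a log2 fold change of -0.91. Every Eµ-TCL1 library stood above every Eµ-PRMT5/TCL1 library for these 4 genes. DESeq2 on the same 5 libraries called all 4, with adjusted p of 4.19e-07, 4.40e-06, 9.39e-06 and 2.68e-05 in that order.

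The other 8 lower genes had log2 fold changes between -0.98 and -0.52. Dusp5 and Dusp2, phosphatases that switch off MAP kinases, differed by -0.98 and -0.52, and Rgs1, which shortens chemokine receptor signals, by -0.71. Nr4a1, an orphan nuclear receptor induced within minutes of antigen receptor signalling, was at 19.98, 24.7 and 26.6 CPM against 34.3 and 39.7 CPM, a log2 fold change of -0.64. Per1, a clock gene, differed by -0.60, G0s2, an inhibitor of lipolysis, by -0.86, Tgif1, a transcriptional repressor, by -0.54, and Gcsam, a motility adaptor of germinal centre B cells, by -0.90. DESeq2 called Dusp5 and Rgs1 among these (adjusted p of 0.0251 and 0.0468). Outside the naming rule, DESeq2's other 2 calls were Tsc22d3, a glucocorticoid-induced gene on chromosome X (log2 fold change -0.74), and the V segment Ighv1-4 (-1.77); both were picked after their values were seen.

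The higher genes were led by Cd244a and Trps1, with the largest fold changes in Dnah12 and Ccl3. Cd244a, a receptor of natural killer cells and some T cells (chr1:171559193-171609746), was at 57.7, 76.8 and 72.0 CPM in Eµ-PRMT5/TCL1 and at 44.7 and 43.4 CPM in Eµ-TCL1, a log2 fold change of 0.64 (SE 0.13, interval 0.36 to 0.93, edgeR adjusted p = 0.922). Both chains of the interleukin-18 receptor were on this side. Il18rap was at 120, 123 and 95.7 CPM against 82.3 and 73.3 CPM, and Il18r1 at 88.4, 73.7 and 76.7 CPM against 60.3 and 61.9 CPM. Ccl3, an inflammatory chemokine, was at 7.11, 11.7 and 9.01 CPM against 4.39 and 4.22 CPM, 2.15-fold higher. Trps1, a GATA-type repressor, was at 116, 129 and 124 CPM against 88.7 and 94.7 CPM, and the transcription factor Klf6 at 171, 185 and 176 CPM against 136 and 151 CPM. The other 6 had log2 fold changes of 1.29 (Dnah12, a dynein chain), 0.82 (Aqp9, a glycerol channel), 0.74 (H2-Q10, a class Ib histocompatibility gene), 0.63 (Sirpb1c), 0.50 (Id3, an inhibitor of E proteins) and 0.38 (Trim7). H2-Q10 and Sirpb1c have near-identical relatives that can exchange fragments. Trim7 overlaps a gene on the opposite strand and Trps1 overlaps one on the same strand, so the counts of all these genes are uncertain. DESeq2 on the 5 libraries called 0 of the 12, and edgeR without the filter on low counts called 9, all but Id3, Il18r1 and Klf6, with adjusted p from 1.41e-05 (Cd244a) to 0.0300 (Aqp9).

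**Figure D3:**
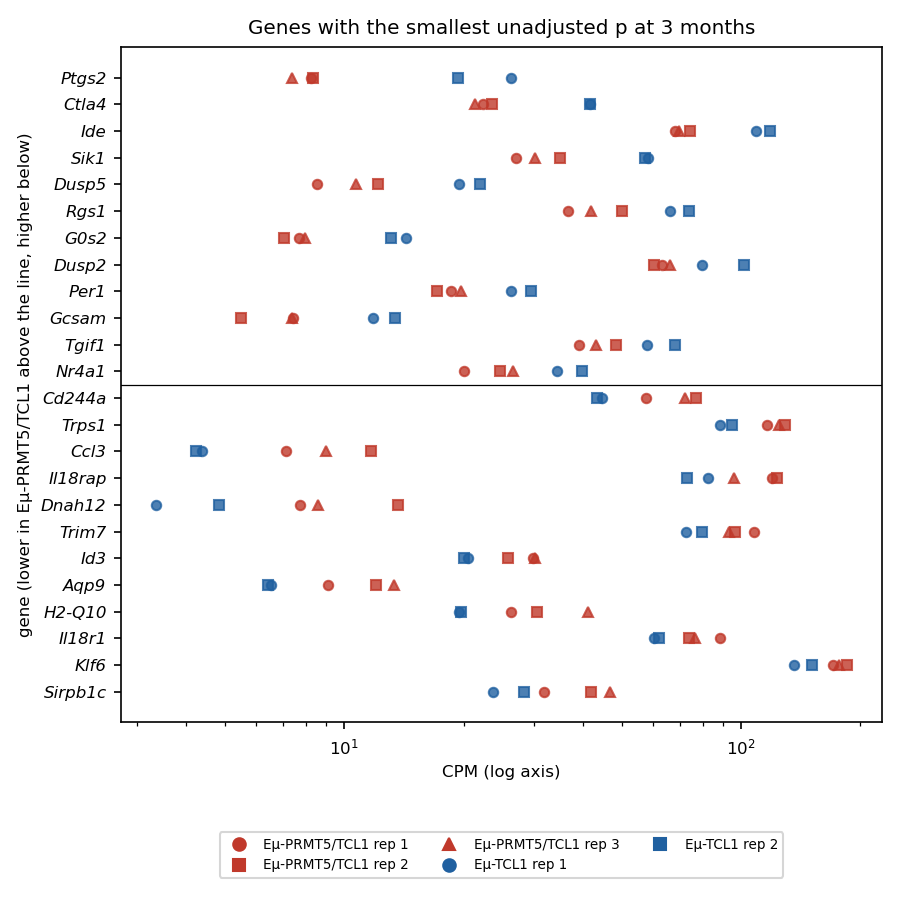
Each row is a gene and each point a library, with CPM on a log axis, circles, squares and triangles for replicates 1, 2 and 3, red for Eµ-PRMT5/TCL1 and blue for Eµ-TCL1. The rule took genes whose groups did not overlap; Ptgs2 shows the widest gap of the lower genes, 8.33 against 19.3 CPM between the nearest libraries.

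Beside the higher genes, the natural killer markers were also on the high side. All 10 listed natural killer genes had a positive log2 fold change, with a median of 0.31 (all genes tested, -0.0037, 48.9% positive), and none had an unadjusted p under 0.05. Their summed level was 705, 618 and 456 CPM in Eµ-PRMT5/TCL1 and 502 and 355 CPM in Eµ-TCL1, so the groups overlapped (two-sided exact permutation test, p = 0.3, smallest possible 0.1). Gzma, which encodes a cytotoxic granule protease, was at 205, 201 and 123 CPM against 129 and 84.6 CPM. The median was 0.17 without Eµ-PRMT5/TCL1 replicate 1, 0.12 without Eµ-TCL1 replicate 2 and 0.31 to 0.59 without each other library. The part of these cells in the values of Cd244a, Ccl3 and the interleukin-18 receptor genes was not tested.

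Most of the PRMT5 machinery lay well inside 2-fold. All 5 genes of the PRMT5 complex (Prmt5, Wdr77, Clns1a, Riok1 and Coprs) had intervals inside 2-fold, with log2 fold changes of -0.08 to 0.04, and 0 had an unadjusted p under 0.05. The interval of Prmt5 was -0.19 to 0.26, while that of Coprs, at 0.731 to 1.88 CPM, reached from -0.93 to 0.98. Wdr77, the obligate partner, was at 25.02, 23.0 and 25.3 CPM against 24.2 and 23.1 CPM. The 16 other arginine methyltransferases and methyl donor enzymes all lay inside 2-fold, with a median of 0.0017. Of 24 Sm proteins and splicing factors, 23 lay inside 2-fold, with a median of -0.07, and Snrpd1, an Sm protein, had the lowest p of 0.0839 at 16.8, 26.4 and 18.1 CPM against 23.4 and 32.1 CPM. The share inside 2-fold was 75.1% over all genes, 95.2% of genes at 10 to 100 CPM and 97.7% of genes over 100 CPM. Counts inside 2-fold in these lists, and in the lymphoma, MYC, PI3K-AKT and pan-B lists below, were near the share at those levels. They are thus not particular to these genes.

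Most genes linked to PRMT5 in lymphoma lay within the same bounds. Of 14 tested, 13 lay inside 2-fold, and 1, Ptpro, a receptor tyrosine phosphatase, had an unadjusted p under 0.05. It was at 24.9, 32.0 and 29.2 CPM in Eµ-PRMT5/TCL1 and at 16.96 and 21.8 CPM in Eµ-TCL1, with no overlap and a log2 fold change of 0.57 (interval 0.21 to 0.92). Ccnd1, Ccnd2 and Ccnd3, the D cyclins, differed by -0.05, -0.08 and -0.15, and Cdk4 by 0.04. All 20 MYC-responsive genes lay inside 2-fold with a median of -0.05. Myc itself was at 31.1, 30.5 and 34.8 CPM against 37.2 and 30.9 CPM, an overlap of the groups.

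All 21 genes of PI3K-AKT signalling, the pathway of TCL1, lay inside 2-fold. Of these 21, 2 had an unadjusted p under 0.05, both higher in Eµ-PRMT5/TCL1 (1.34% of all genes tested were higher at that p). Phlpp2, a phosphatase that acts on AKT, was 1 of them, at 35.3, 33.6 and 30.4 CPM against 27.2 and 26.7 CPM, a log2 fold change of 0.30. Akt1 differed by 0.06 and Akt2 by -0.07. Of 13 genes of the BCL2 family 12 lay inside 2-fold, and Bcl2 was at 145, 146 and 130 CPM against 157 and 104 CPM. The p53 targets had 12 of 13 inside 2-fold and a median of -0.05.

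B-cell identity genes were close to each other, with small differences by subset. All 16 pan-B genes lay inside 2-fold with a median of 0.07, and Blnk, the adaptor below the B-cell receptor, had a log2 fold change of 0.19. Of 12 genes of follicular and marginal zone B cells, 10 were positive and the median was 0.11. Cr2, the complement receptor CD21 of marginal zone and follicular cells, was at 901, 896 and 865 CPM in Eµ-PRMT5/TCL1 and at 600 and 790 CPM in Eµ-TCL1 (log2 fold change 0.35, interval 0.10 to 0.61). Klf2, a quiescence and homing factor of follicular cells, was at 155, 138 and 158 CPM against 123 and 129 CPM. Without Eµ-TCL1 replicate 2 the median of the list was 0.24.

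Most listed genes of germinal centre, immature and CLL-like B cells had negative log2 fold changes, as did some activation genes. Cd83, an activation marker, was at 122, 116 and 104 CPM against 141 and 180 CPM, and Tnfaip3, a brake on NF-kB, at 71.9, 74.7 and 70.9 CPM against 82.6 and 103 CPM, with log2 fold changes of -0.50 and -0.35. Rel, an NF-kB subunit, differed by -0.18. These were the 3 lower genes with an unadjusted p under 0.05 among 24 genes of B-cell receptor signalling and activation. In that list 1 other gene was higher at that p, and the median was 0.02. Of 10 germinal centre genes, 8 were negative (51.1% of all genes) and 4 had an unadjusted p under 0.05, Mybl1, Gcsam, Nuggc and Neil1, all lower (1.49% of all genes). Mybl1, a transcription factor, was at 18.1, 16.4 and 17.3 CPM against 22.6 and 31.3 CPM. The germinal centre median was -0.46, and 0.0040 without Eµ-TCL1 replicate 2, so its size rested on that library.

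All 7 tested genes of immature B cells were negative, with a median of -0.37 and a summed level of 334, 385 and 309 CPM against 391 and 396 CPM. The groups did not overlap in this sum (two-sided exact permutation test, p = 0.2). Cd93, the marker of transitional B cells, was at 27.6, 29.2 and 28.8 CPM against 33.7 and 39.8 CPM. Of 12 B1a and CLL-like genes 10 were negative, with a median of -0.24, or -0.00061 without Eµ-TCL1 replicate 1. Besides Ctla4, Cd5, the marker of B1a and CLL cells, had an unadjusted p under 0.05, at 64.9, 59.6 and 66.3 CPM against 71.9 and 78.7 CPM. Cd5 and Ctla4 are also T-cell genes. Of 20 T-cell markers 17 were negative with a median of -0.12, or 0.02 without Eµ-PRMT5/TCL1 replicate 2, and their summed level was 2528, 1905 and 2567 CPM against 2485 and 2505 CPM. The part of T cells in these values was not tested.

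Proliferation genes varied widely between mice of the same genotype. All 20 G2/M genes were negative, with a median of -0.64, yet 0 had an unadjusted p under 0.05 and no interval lay inside 2-fold. Their summed level was 543, 1154 and 673 CPM in Eµ-PRMT5/TCL1 and 879 and 1496 CPM in Eµ-TCL1, with the replicate 2 libraries highest in each genotype (two-sided exact permutation test, p = 0.3). Mki67, the common proliferation marker, was at 228, 488 and 295 CPM against 368 and 614 CPM (log2 fold change -0.54, interval -1.86 to 0.77). All 21 S-phase genes were negative too, with a median of -0.27, and 1 had an unadjusted p under 0.05. Without Eµ-TCL1 replicate 2 the medians were -0.15 and -0.06, and leaving out each other library gave -0.997 to -0.41 for G2/M and -0.44 to -0.12 for S phase. The genes of a list were read in the same 5 libraries, so a shared sign is not a count of separate observations.

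**Figure D4:**
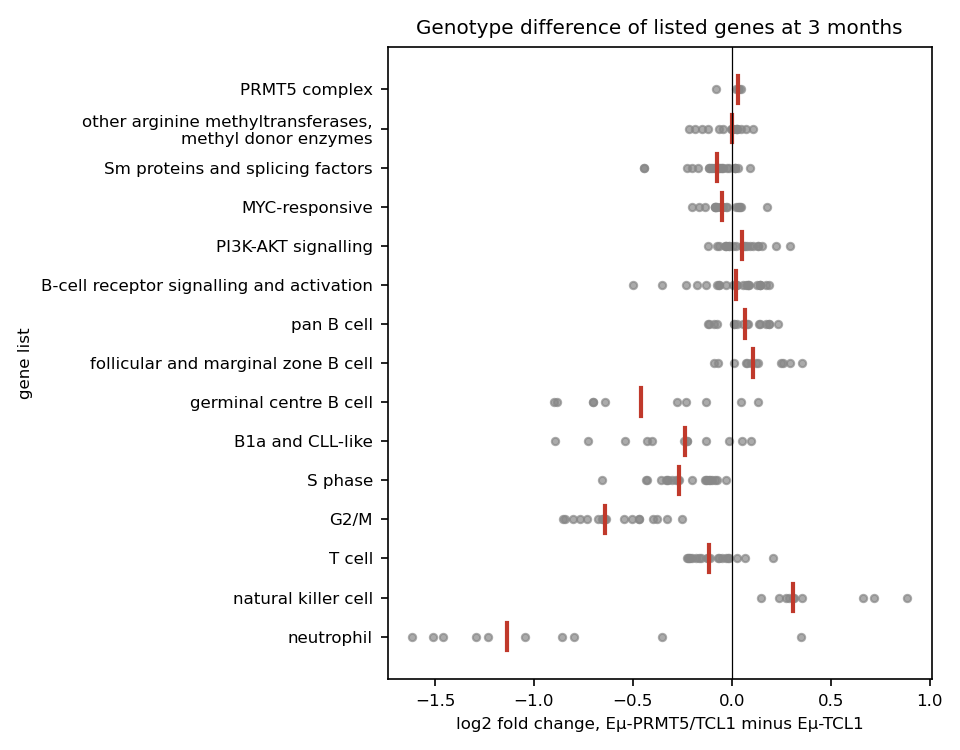
Each grey point is a gene, placed by its log2 fold change between genotypes, and the red bar is the median of its list. The PRMT5 complex, MYC and PI3K-AKT lists lie near 0, with medians of 0.03, -0.05 and 0.05, while the G2/M and neutrophil lists have medians of -0.64 and -1.14, and the neutrophil median is 0.04 without Eµ-TCL1 replicate 2.

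Immediate early and heat shock genes did not move as 1 group. Of 20 genes, 8 were positive and 12 negative with a median of -0.14. Besides Nr4a1 and Klf6, Ier2 had an unadjusted p under 0.05, at 33.8, 33.9 and 43.9 CPM against 44.4 and 51.4 CPM. The 20 interferon response genes had a median of 0.09, and 0 had an unadjusted p under 0.05. Lists of plasma cell, immunoglobulin constant region, dendritic cell, erythroid, megakaryocyte and stromal genes had medians between -0.10 and 0.14. These values moved when a library was left out: without Eµ-TCL1 replicate 2 the medians were 0.93 (erythroid), 0.42 (constant regions), 0.24 (dendritic cell) and -0.35 (stromal), and without Eµ-PRMT5/TCL1 replicate 2 the plasma cell median was -0.37. Alas2, of haem synthesis, was their 1 gene with an unadjusted p under 0.05, at 9.35, 6.83 and 7.31 CPM against 4.98 and 4.30 CPM.

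Other cell types varied by library. The neutrophil markers summed to 976, 2806 and 2757 CPM in Eµ-PRMT5/TCL1 and to 2191 and 6507 CPM in Eµ-TCL1, with Eµ-TCL1 replicate 2 highest and Eµ-PRMT5/TCL1 replicate 1 lowest, the order of the extremes on the first principal component. S100a9 was at 483, 1191 and 1317 CPM against 920 and 2552 CPM. Of the 10 neutrophil genes 9 were negative with a median of -1.14, the groups overlapped in the sum (two-sided exact permutation test, p = 0.4), and the median was 0.04 without Eµ-TCL1 replicate 2. Macrophage and monocyte markers summed to 1540, 2758 and 2222 CPM against 1722 and 2643 CPM with a median of 0.07. Clec7a, the beta-glucan receptor dectin-1 of myeloid cells, was at 100.1, 119 and 135 CPM against 72.3 and 82.8 CPM and was the 1 gene of 13 with an unadjusted p under 0.05. The part of myeloid cells in the values of Ptgs2, Aqp9 and Sirpb1c, which such cells also express, was not tested.

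**Figure D5:**
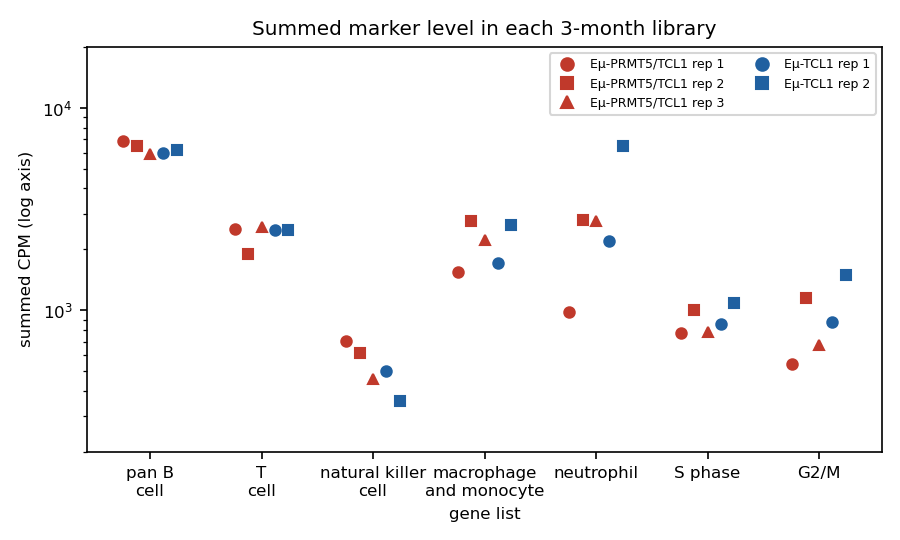
Each point is the summed CPM of a marker list in a 3-month library on a log axis, with red for Eµ-PRMT5/TCL1 and blue for Eµ-TCL1. Pan-B sums run from 5935 to 6881 CPM, whereas neutrophil sums run from 976 to 6507 CPM and G2/M sums from 543 to 1496 CPM, with the genotypes overlapping in all 7 lists.

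Immunoglobulin V segments differed between mice in which segment led. A few B-cell clones that take up much of a sample raise the share of 1 segment, and near-identical segments can exchange fragments. Among heavy chain V counts the leading segment was Ighv7-3 at 5.79% (Wilson 95% interval 5.37 to 6.24), Ighv1-55 at 13.7% (13.2 to 14.2) and Ighv1-75 at 8.50% (7.98 to 9.06) in Eµ-PRMT5/TCL1. It was Ighv1-74 at 27.7% (26.9 to 28.5) and Ighv1-26 at 9.50% (9.08 to 9.93) in Eµ-TCL1. No heavy chain segment led in 2 mice, and the shares overlapped between genotypes (two-sided exact permutation test, p = 0.3). Among kappa V counts Igkv5-39 led in 4 of the 5 libraries, at 20.7% and 21.2% in Eµ-PRMT5/TCL1 replicates 1 and 2 and at 30.8% and 10.2% in Eµ-TCL1, and Igkv12-89 led at 8.84% in Eµ-PRMT5/TCL1 replicate 3 (two-sided exact permutation test, p = 0.9). The intervals cover counting error only.

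The study names genes from several of its data sets. Myc, Il10, Bcl11b and Runx3 were named from bulk libraries that include these, and Ctla4, Cd93 and Cd83 from single-cell data of diseased mice. In diseased mice the study reported Ctla4 as enriched in Eµ-PRMT5/TCL1 B cells and Cd93 as absent from Eµ-PRMT5/TCL1 spleen. It listed Cd83 among genes enriched in clusters dominated by Eµ-PRMT5/TCL1 or Eµ-PRMT5 cells. Of 18 genes that the study names, 16 were negative at 3 months with a median of -0.22. The 4 with an unadjusted p under 0.05 were Ctla4, Cd93, Cd5 and Cd83, all lower, and 0 were higher (1.49% and 1.34% of all genes). The interval lay inside 2-fold for 14 of the 18, against 75.1% of all genes. Il10, which encodes an anti-inflammatory cytokine, was at 2.00, 2.48 and 1.71 CPM against 3.05 and 2.41 CPM, and Cxcr5, the follicle homing receptor, at 208, 214 and 186 CPM against 194 and 231 CPM.

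The differences at 3 months were smaller than those at 6 months, which came from other mice. The median absolute log2 fold change over 16616 genes, without chromosomes X and Y and immunoglobulin genes, was 0.11 at 3 months and 0.33 at 6 months. Fold changes at the 2 ages were weakly related across genes (Pearson r = -0.08, Spearman rho = -0.11), genes are not independent replicates, and the sign of r turned when some libraries were left out. Of 2042 such genes called between genotypes at 6 months in a fit of all 9 libraries, 0 were called at 3 months. Of all 17289 such genes tested at 3 months 0 were called too, so that count was fixed for any set of genes. A fit of the 4 libraries at 6 months alone, the form used at 3 months, called 25 genes. Among the 1105 that were higher at 6 months, the median log2 fold change at 3 months was -0.05, and 7 were higher and 31 lower at an unadjusted p under 0.05 (3.44%, against 2.77% of all such genes). Among the 937 lower at 6 months, 35 were higher and 28 lower (6.72%). Twsg1, a modulator of BMP signals taken from earlier results on these data, was at 42.9, 44.8 and 41.5 CPM in Eµ-PRMT5/TCL1 at 3 months against 52.2 and 52.2 CPM, and at 165 and 203 CPM against 39.1 and 41.1 CPM at 6 months. At 6 months both Eµ-TCL1 libraries, and neither Eµ-PRMT5/TCL1 library, carried Y-linked RNA, so sex-linked content and genotype cannot be told apart at that age.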

How the data were processed

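Per the labels and the study's methods, reads were trimmed (Cutadapt) and mapped to GRCm38 by the authors, with STAR 2.6.0c. Per the file headers, the authors counted primary fragments per gene with featureCounts 1.4.6-p5 on Ensembl release 95 without a strand option, so overlapping genes on opposite strands are not told apart. The deposited values are raw counts, 1 library per mouse. They were analysed here in R 4.3.3 with edgeR 4.0.16 (filterByExpr, TMM, robust quasi-likelihood fit of the 5 libraries at 3 months, Benjamini-Hochberg adjustment), which kept 18017 of 54838 genes. Intervals of log2 fold changes came from the F statistic. Means ± SD were replaced by the value in each library, since groups held 2 or 3 mice, and exact tests of 3 against 2 mice cannot go below p = 0.1. Symbols and coordinates came from GENCODE M21 (54809 identifiers matched). Alternatives were DESeq2 1.42.0, limma 3.58.1, other scalings and filters, a fit of all 4 groups, a replicate block and leaving out each library.

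The fit was tested on simulated data. The comparison, gene lists and naming rule were chosen with earlier results of these data known. Named genes were the 12 higher and 12 lower protein-coding autosomal genes with the smallest p and no overlap between groups, list members with an unadjusted p under 0.05 or high CPM, and sex-linked and PRMT5 and TCL1 genes. Further list members are given as examples outside that rule, and were picked after their values were seen. Single values of some listed genes are not reported here. No sample was left out of the main results. Chi-square per gene between replicates was 7.62 to 12.4, so no library was a repeat of another.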

Additional observations from a re-analysis of the deposited data

Results flagged for a closer look

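The genotype difference was tested against age in a fit of all 9 libraries, as the log2 fold change at 6 months minus that at 3 months (edgeR, Benjamini-Hochberg adjustment). For 745 of 18795 genes the difference passed an adjusted p of 0.05, 411 upward and 334 downward. Genes on chromosomes X and Y and immunoglobulin genes were kept in this count. Sex-linked content and genotype cannot be told apart at 6 months, so this difference carries both. Of 43 genes from the naming rule, the study's list and the earlier 6-month list with an unadjusted p under 0.05 at 3 months, 15 passed. Many of the 43 were chosen on values of these libraries, so this count is a description.

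The named lower and higher genes were chosen for small p at 3 months, and this difference subtracts those same 3-month values, so their choice pushes it away from 0 and the values are a description. Of the lower genes the difference was 2.85 for Sik1, 1.24 for Ctla4 and 0.96 for Ide. The 6-month fold changes themselves were 0.35 for Ctla4 and 0.28 for Ide and did not pass (adjusted p of 0.170 and 0.155). Sik1 was at 23.7 and 36.6 CPM in Eµ-TCL1 and at 105 and 127 CPM in Eµ-PRMT5/TCL1 at 6 months, so the order of the genotypes was opposite at the 2 ages. Of the higher genes it was -2.34 for Ccl3, -1.76 for Trim7 and -1.71 for Il18r1. Of the study's genes, the difference was 4.13 for Il10, 1.53 for Myc, 1.22 for Cxcr5 and 1.76 for Cd83, and -1.36 for Bcl11b and -1.28 for Runx3. It was 2.47 for Twsg1, 3.82 for Fah and -3.17 for Cr2. Il10, Myc, Bcl11b and Runx3 were named by the study for 6-month differences in these libraries. Twsg1, Fah and Cr2 came from the earlier 6-month list and had a small p at 3 months. Their choice also pushes the difference away from 0, so these values are a description as well. Ptgs2, with the largest fold change of the named lower genes at 3 months, had a difference of 1.16 that did not pass (adjusted p = 0.595).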

How the results depend on the processing

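The 24 genes named by rule kept their direction under all 15 alternatives that tested them. They were chosen for groups that did not overlap, so leaving out a library could hardly turn it. The kept direction is therefore no separate support for these genes. The count of called genes, 0 in the main result, was 8 by DESeq2 on 5 libraries and 3 by DESeq2 on all 9. It was 107 with no filter on low counts and 0 or 1 when an Eµ-PRMT5/TCL1 library was left out. With no filter, 104 of the 107 were among the genes of the main result, and the cause was not tested. Genes at an unadjusted p under 0.05 numbered 242 with all 4 groups in the fit, 137 by DESeq2 on all 9 libraries, 1310 with no filter, 248 at 10 CPM or more in 2 samples and 485 to 833 with a library left out. Genes over an absolute log2 fold change of 1 numbered 390, 407, 6660 and 35 in those settings and 269 to 873 with a library left out. The replicate numbers are not said to pair mice. Same-numbered deviations from the group mean correlated at 0.22 and 0.19. The deviations of 2 Eµ-TCL1 libraries mirror each other, so these values cannot settle pairing. With the numbers as a replicate block 64 genes were called, 9 of the 24 named among them, and 1091 had an unadjusted p under 0.05. In that fit 346 genes were over an absolute log2 fold change of 1, and the log2 fold change of Runx3 was -0.02. The block leaves fewer residual degrees of freedom than the main fit, and replicate 3 has no partner. Its calls included Gm21887 on chromosome X and Gm47283 on chromosome Y. With a library left out, the log2 ratio of summed neutrophil markers was -1.58 to -0.0077, and that of the leading V share -1.57 to -0.027 for heavy and -0.86 to 0.73 for kappa chains, and the correlation of 3- and 6-month fold changes was -0.18 to 0.021, or -0.21 at 10 CPM or more. With a library left out, small log2 fold changes turned sign, with ranges of -0.21 to 0.06 for Myc, -0.25 to 0.03 for Bcl11b, -0.04 to 0.11 for Runx3, -0.19 to 0.06 for Cxcr5, -0.02 to 0.14 for Cd274, -0.49 to 0.10 for Ly6a and -0.24 to 0.12 for Cd69. Of 463 list medians recomputed, 443 moved by less than the spread between libraries. Depth limits genes under 1 CPM.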
